A study of Sus scrofa with 33 samples.

Results

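KCNJ8, KCNIP2, KCNE1 and PLN encode 3 subunits of cardiac potassium channels and phospholamban, a regulator of the calcium pump. They were followed in right ventricular myocardium of pigs (Sus scrofa) during pulmonary banding. The 4 genes were taken because their falls after 120 min of banding, in these same arrays, were among the clearest of an ion channel and calcium handling list. They were thus selected on that change, which is given below as a description without a test. They were found by gene symbol in the platform annotation of the Affymetrix Porcine Genome Array, where 9 of 23999 probe sets named 1 of them alone, and they make up 4 of 6765 genes measured. A probe set is a group of short probes read as 1 value. Each gene is represented by its brightest probe set over the 33 arrays, and the others are shown beside it.

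Total RNA from 33 biopsies of the right ventricular free wall was hybridised, 1 array per biopsy, 3 biopsies from each of 11 pigs. In the shunt arm (6 pigs) the biopsies came at baseline, 120 min into pulmonary banding, and 60 min after that. By the labels, banding continued in those last 60 min, while a modified Glenn shunt carried venous blood past the right ventricle. In the control arm, 5 pigs had the same baseline and the same 120 min of banding, and banding then continued for the last 60 min without a shunt. All 11 pigs were banded, so none was biopsied over these hours without banding, and each change includes everything that elapsed between biopsies. The pigs are an acute large-animal model, and no source used here gives their age, sex or breed.

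The potassium currents of the ventricle end the action potential. KCNJ8 encodes Kir6.1, a pore subunit of ATP-sensitive potassium channels, which is best known from smooth muscle and pericytes of vessels and is also found in heart muscle. KCNIP2 encodes KChIP2, the auxiliary subunit of the Kv4 channels that carry the transient outward current of early repolarisation. KCNE1 encodes minK, which joins the KCNQ1 pore to form the slow delayed rectifier. Phospholamban, the product of PLN, holds back the calcium pump SERCA2a of the sarcoplasmic reticulum until it is phosphorylated in response to beta-adrenergic stimulation.

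All values are log2 values as deposited, and a change is a difference of log2 values within a pig. Arrays hold no read depth, so their number limits the precision. The array medians lay between 6.10 and 6.17. Spiked-in control RNAs divided the pigs into shunt pigs 1 to 4, shunt pigs 5 and 6, and control pigs 1 to 5. The Dap control averaged 3.20, 8.53 and 7.72 in these sets, and its values in shunt pigs 5 and 6 lay within the range of the control pigs. The BioB control averaged 8.22, 5.92 and 9.26, without overlap between the sets. In every difference between the arms, arm and array set cannot be told apart. Markers of ventricular cardiomyocytes were bright: the mean of 10 measured genes lay between 14.03 and 14.34 on every array. With no other tissue in the series, they do not check which chamber was sampled. The change of this mean from baseline to 120 min was -0.05 ± 0.06 (SD, n = 11 pigs).

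KCNJ8 was lower at 120 min than at baseline in 11 of 11 pigs, and of the 4 genes it had the largest mean change. Its representative probe set had a lowest, median and highest value of 9.61, 9.94 and 10.21 at baseline in the shunt arm, 9.11, 9.19 and 9.39 at 120 min, and 8.93, 9.09 and 9.34 at the last biopsy (n = 6 pigs). The highest shunt value at either later biopsy lay below the lowest at baseline. In control pigs 1 to 5 it had 9.78, 10.05, 9.77, 9.71 and 9.56 at baseline, then 9.10, 9.75, 9.13, 9.51 and 9.15 at 120 min, and 9.30, 9.53, 9.28, 9.30 and 9.18 at the last biopsy. In the control arm the last values also lay below all baseline values, by a narrow margin. The control values at 120 min overlapped with the baseline values because control pig 2 started and stayed high. Neither of the other KCNJ8 probe sets showed any of these separations from baseline.

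The mean change of KCNJ8 from baseline to 120 min was -0.60 ± 0.22 (SD, n = 11 pigs), a level 1.51-fold lower. Over the whole course it was -0.84 ± 0.14 in the shunt arm, 1.79-fold lower, and -0.45 ± 0.06 in control pigs, 1.37-fold lower (SD, n = 6 and 5 pigs). In its representative probe set the per-pig changes of the arms did not overlap, as for 0.879% of all probe sets. They ran from -1.01 to -0.67 in shunt pigs and from -0.52 to -0.38 in control pigs. The changes of the next brightest KCNJ8 probe set did overlap between the arms. In a whole biopsy, fewer cells of a type and less RNA per cell cannot be told apart, here and for the other genes. Of all 23999 probe sets, 5.88% were lower at 120 min in every pig. Last values below all baseline values were found for 4.75% of probe sets in shunt pigs and 3.45% in control pigs, and 120 min values below all baseline values for 5.01% in the shunt arm.

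KCNIP2 was lower at 120 min in 10 of 11 pigs, by less than KCNJ8. Its only probe set had a lowest, median and highest value of 9.99, 10.53 and 11.01 at baseline in the shunt arm, 9.54, 10.32 and 10.67 at 120 min, and 9.66, 10.15 and 10.55 at the last biopsy. In control pigs 1 to 5 it had 10.07, 9.71, 10.98, 10.56 and 10.22 at baseline, then 9.91, 9.70, 10.62, 10.71 and 9.66 at 120 min, and 10.12, 9.55, 11.01, 10.36 and 10.19 at the last biopsy. Pigs differed from each other by more than KCNIP2 moved within them, and every group overlapped with every other. The change at 120 min was -0.29 ± 0.25 (SD, n = 11 pigs). From baseline to the last biopsy it was -0.45 ± 0.28 in the shunt arm, lower in 6 of 6 pigs, and -0.06 ± 0.11 in control pigs, lower in 3 of 5 pigs. Control pigs 1, 3 and 5 had their lowest KCNIP2 value at 120 min and were back near baseline at the last biopsy.

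KCNE1 had widely spread changes over the whole course in shunt pigs and a narrow spread in control pigs. Its representative probe set had a lowest, median and highest value of 9.43, 9.99 and 10.37 at baseline in the shunt arm, 9.19, 9.56 and 9.77 at 120 min, and 8.88, 9.48 and 10.33 at the last biopsy. In control pigs 1 to 5 it had 9.91, 9.78, 9.95, 9.99 and 10.19 at baseline, then 9.53, 10.01, 9.35, 10.03 and 9.98 at 120 min, and 9.65, 9.41, 9.69, 9.64 and 9.97 at the last biopsy. The change at 120 min was -0.32 ± 0.34 (SD, n = 11 pigs), with 9 pigs lower. Over the whole course the shunt pigs spread from -1.21 to 0.17, with a mean of -0.42 ± 0.55 and 4 of 6 lower, whereas the 5 control pigs all lay between -0.37 and -0.23, with a mean of -0.29 ± 0.06.

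PLN was lower at 120 min in 10 of 11 pigs. Its representative had a lowest, median and highest value of 13.21, 13.52 and 13.83 at baseline in the shunt arm, 12.67, 12.96 and 13.27 at 120 min, and 12.40, 12.67 and 13.35 at the last biopsy. In control pigs 1 to 5 it had 13.38, 13.22, 13.44, 13.19 and 13.48 at baseline, then 13.02, 13.02, 12.77, 13.44 and 13.02 at 120 min, and 13.24, 12.47, 13.28, 13.00 and 13.22 at the last biopsy. Each later group overlapped with its baseline: control pig 4 was above its baseline at 120 min, and shunt pig 4 and 3 control pigs had last values within the range of the baselines. The change at 120 min was -0.44 ± 0.31 (SD, n = 11 pigs), a level 1.35-fold lower. At the last biopsy it was -0.77 ± 0.37 in the shunt arm, 1.70-fold lower, and -0.30 ± 0.25 in control pigs, 1.23-fold lower, and all 11 pigs ended below their baseline.

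**Figure D1:**
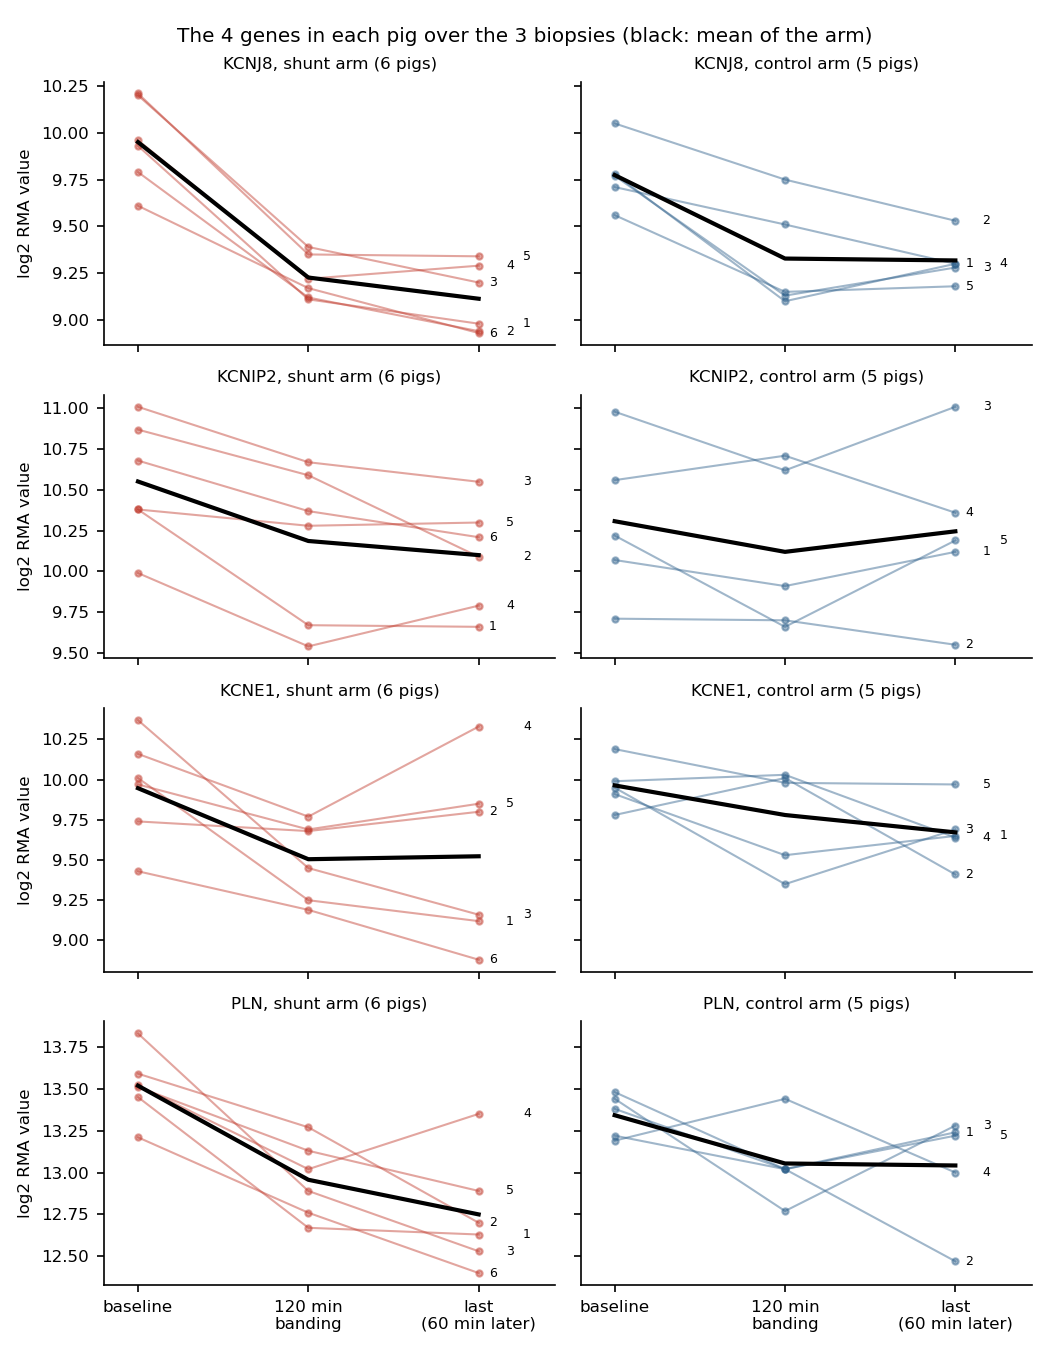
Log2 value of the representative probe set of each gene (vertical axis) at the 3 biopsies (horizontal axis), with shunt pigs on the left and control pigs on the right; each thin line is 1 pig, numbered at its end, and the black line is the mean of the arm. KCNJ8 lines descend in all 11 pigs between baseline and 120 min, while KCNIP2 and KCNE1 lines cross.

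The pigs shared most of these falls, and the 4 genes were chosen on the fall at 120 min. At 120 min all 4 genes were below baseline in 6 of 6 shunt pigs and in control pigs 1, 3 and 5. In control pig 2, 3 of the 4 were lower, and in control pig 4 only 1. At the last biopsy all 4 were below baseline in shunt pigs 1, 3, 5 and 6 and in control pigs 2, 4 and 5. Between 120 min and the last biopsy, shunt pig 4 and control pigs 1 and 3 had all 4 genes higher, while shunt pigs 1, 3 and 6 and control pigs 2 and 4 had all 4 lower. In 22 within-pig changes from baseline, the closest pair of the 4 genes was KCNJ8 and PLN, with a root mean square difference of 0.262, and the most distant was KCNJ8 and KCNIP2, with 0.411. Among the 6764 other genes, PLN ranked 73 in nearness to KCNJ8 and KCNIP2 ranked 562. Seen from KCNIP2, KCNJ8 ranked 2939. These are descriptions over changes that share the baseline arrays. The changes up to 120 min and after it share the 120 min arrays. How often other genes moved together in the same pigs was not counted.

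A further test set the last biopsy against the mean of the baseline and 120 min biopsies in all pigs. Its estimate was uncorrelated by design with the change that chose the genes. It still used the same arrays and the same estimate of spread, so it is not independent of that choice. A gene that fell by 120 min and stayed down gives a negative value here, and one that had recovered midway to its baseline gives a value of 0. KCNJ8 fell in this comparison by 0.37 ± 0.04 on the log2 scale (SE, 95% interval -0.46 to -0.27), with an adjusted p of 7.66e-06 in limma, and was lower in 11 of 11 pigs. PLN fell by 0.34 ± 0.08 (interval -0.50 to -0.17, adjusted p = 0.00441 in limma) and was lower in 8 of 11 pigs. KCNE1 (-0.20 ± 0.09) and KCNIP2 (-0.13 ± 0.07) did not pass, with adjusted p-values of 0.119 and 0.177 in limma, and each was lower in 7 of 11 pigs. So 2 of the 4 genes passed downwards, where 12% of all probe sets did, whether or not these had fallen at 120 min. With the 15 control arrays alone, KCNJ8 gave -0.23 (adjusted p = 0.156 in limma) and PLN -0.16 (adjusted p = 0.675), and the smaller set of shunt pigs 5 and 6 alone gave -0.45 and -0.50, also without a call.

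The arms had the same treatment until 120 min, so their difference up to then compares pigs before the treatments diverged. None of the 4 genes passed for it in limma. The shunt minus control differences in the change to 120 min were -0.28 ± 0.10 for KCNJ8 (adjusted p = 0.613), -0.18 ± 0.15 for KCNIP2 (0.865), -0.26 ± 0.21 for KCNE1 (0.856) and -0.28 ± 0.19 for PLN (0.828). At an unadjusted p under 0.05, 1 of the 4 passed, KCNJ8 (unadjusted p = 0.0128), against 6.9% of all probe sets. After adjustment no probe set of the array passed (0%). At baseline the arms differed by 0.18 ± 0.12 for KCNJ8, 0.24 ± 0.22 for KCNIP2, -0.02 ± 0.14 for KCNE1 and 0.18 ± 0.10 for PLN (SE, adjusted p from 0.528 to 0.977 in limma), with none past the threshold and none at an unadjusted p under 0.05. For the baseline, 11.8% of probe sets had an unadjusted p under 0.05 and 0.0208% passed after adjustment.

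The comparison of the later change between the arms asked what the shunt did during the last 60 min. No gene of the 4 passed in limma, at an adjusted p or at an unadjusted p under 0.05, and no probe set of the array did after adjustment (0%), with 3.07% at an unadjusted p under 0.05. From 120 min to the last biopsy KCNJ8 changed by -0.11 ± 0.12 in shunt pigs and -0.01 ± 0.20 in control pigs (SD, n = 6 and 5 pigs), a difference of -0.10 with a 95% interval from -0.32 to 0.11. KCNIP2 changed by -0.09 ± 0.25 in shunt pigs and 0.13 ± 0.37 in control pigs, a difference of -0.21 (interval -0.53 to 0.10). KCNE1 changed by 0.02 ± 0.33 in shunt pigs and -0.11 ± 0.38 in control pigs, a difference of 0.13 (interval -0.30 to 0.55). PLN changed by -0.21 ± 0.31 in shunt pigs and -0.01 ± 0.46 in control pigs, a difference of -0.19 (interval -0.58 to 0.20). The intervals leave room for differences of either sign in each of the 4 genes.

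Between baseline and the last biopsy the shunt arm had the larger mean fall for all 4 genes, and none of these differences passed in limma after adjustment. The shunt minus control difference was -0.39 ± 0.10 for KCNJ8 (SE, interval -0.60 to -0.17), with an adjusted p of 0.152. It was -0.39 ± 0.15 for KCNIP2 (interval -0.71 to -0.08, adjusted p = 0.291 in limma), -0.47 ± 0.19 for PLN (interval -0.86 to -0.08, adjusted p = 0.307) and -0.13 ± 0.21 for KCNE1 (interval -0.56 to 0.29, adjusted p = 0.863). At an unadjusted p under 0.05, 3 of the 4 passed, against 12.2% of all probe sets, while after adjustment none of the 4 and 0.00417% of all probe sets passed. At 120 min, before the shunt, the differences had been -0.28 for KCNJ8, -0.18 for KCNIP2, -0.28 for PLN and -0.26 for KCNE1. Both sets of differences share the baseline arrays. With each pig left out in turn, the 120 min difference ran from -0.34 to -0.22 for KCNJ8 and -0.27 to -0.09 for KCNIP2. It ran from -0.37 to -0.14 for PLN and -0.36 to -0.16 for KCNE1. Over the whole course the ranges were -0.42 to -0.35 for KCNJ8 and -0.47 to -0.33 for KCNIP2. They were -0.59 to -0.36 for PLN and -0.25 to 0.02 for KCNE1. Within the shunt arm, the mean whole-course change in shunt pigs 1 to 4 and in shunt pigs 5 and 6 was -0.87 and -0.77 for KCNJ8, -0.54 and -0.27 for KCNIP2, -0.47 and -0.34 for KCNE1, and -0.80 and -0.71 for PLN.

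**Figure D2:**
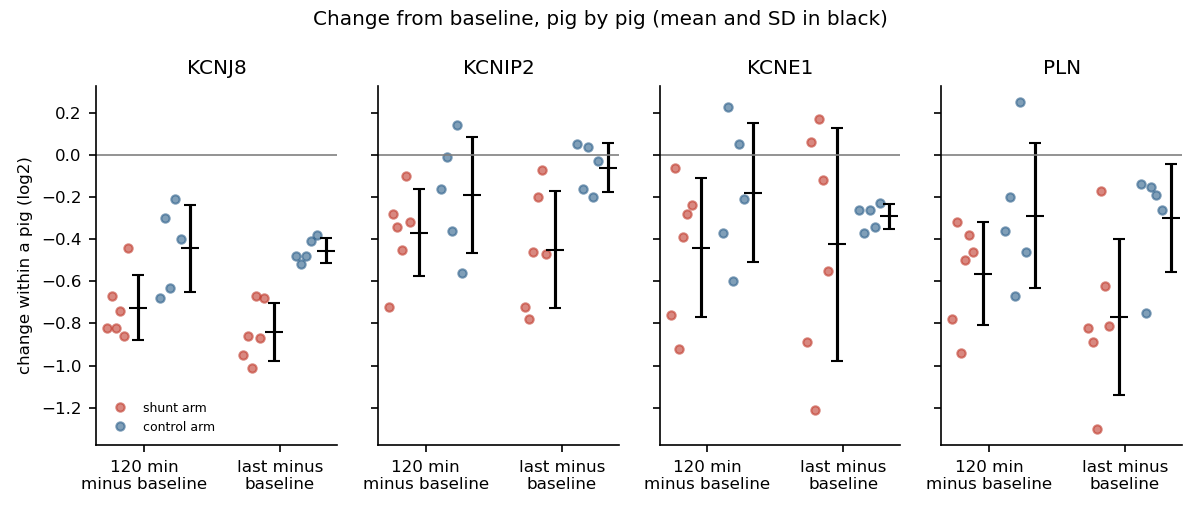
Change of the representative probe set from baseline within each pig (vertical axis, log2) at 120 min and at the last biopsy (horizontal axis). Shunt pigs are in red, left of control pigs in blue, with mean and SD in black. For KCNJ8 at the last biopsy the shunt pigs lie between -1.01 and -0.67 and the control pigs between -0.52 and -0.38; for KCNE1 the shunt pigs spread from -1.21 to 0.17.

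**Figure D3:**
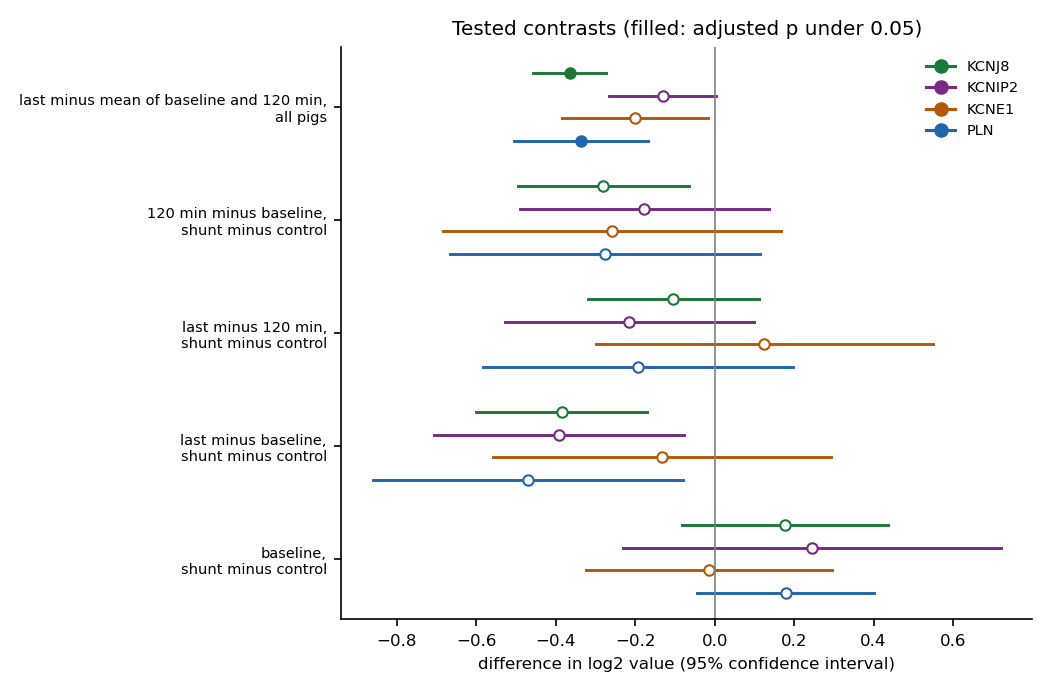
Estimated difference in log2 value (horizontal axis) with its 95% confidence interval for each of the 4 genes in the 5 tested comparisons (vertical axis). Filled points, KCNJ8 and PLN in the comparison of the last biopsy with the earlier ones, passed an adjusted p of 0.05; open points did not.

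The probe sets of 1 gene did not all move alike. Of the 3 for KCNJ8, the next brightest changed by -0.51 ± 0.33 at 120 min (SD, 10 of 11 pigs lower) and fell by 0.41 ± 0.08 at the last biopsy against the mean of the earlier ones (SE, adjusted p = 0.000535 in limma). The other changed by only -0.08 ± 0.21 at 120 min and by -0.12 ± 0.05 in that later comparison (adjusted p = 0.127 in limma). Its mean value over the arrays was 6.96. Over the whole course the next brightest ran from -1.06 to -0.45 in shunt pigs and from -0.80 to -0.31 in control pigs. Its shunt minus control difference was -0.16 ± 0.18 (SE, adjusted p = 0.803 in limma). The dimmest gave -0.04 ± 0.13 (adjusted p = 0.948 in limma), against -0.39 for the representative probe set.

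For KCNE1 the other 2 probe sets had mean levels of 5.79 and 5.72, under the median of every array, and went the other way or nowhere at 120 min. The brighter of them changed by 0.17 ± 0.24, with 8 of 11 pigs higher, and the dimmer by 0.06 ± 0.29 (SD, n = 11 pigs). The fall described for KCNE1 therefore rests on 1 of its 3 probe sets, and with the mean of the 3 its change at 120 min was -0.032 over all pigs and 0.058 in control pigs. The other PLN probe set, with a mean level of 12.02, changed by -0.28 ± 0.34 at 120 min, with 10 of 11 pigs lower. By the last biopsy it had changed by -0.55 ± 0.43 in shunt pigs and -0.18 ± 0.16 in control pigs. At the last biopsy against the earlier ones it gave -0.24 ± 0.09 and did not pass (adjusted p = 0.0731 in limma). The shunt minus control difference of its later change was -0.42 ± 0.22 (unadjusted p = 0.0652).

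**Figure D4:**
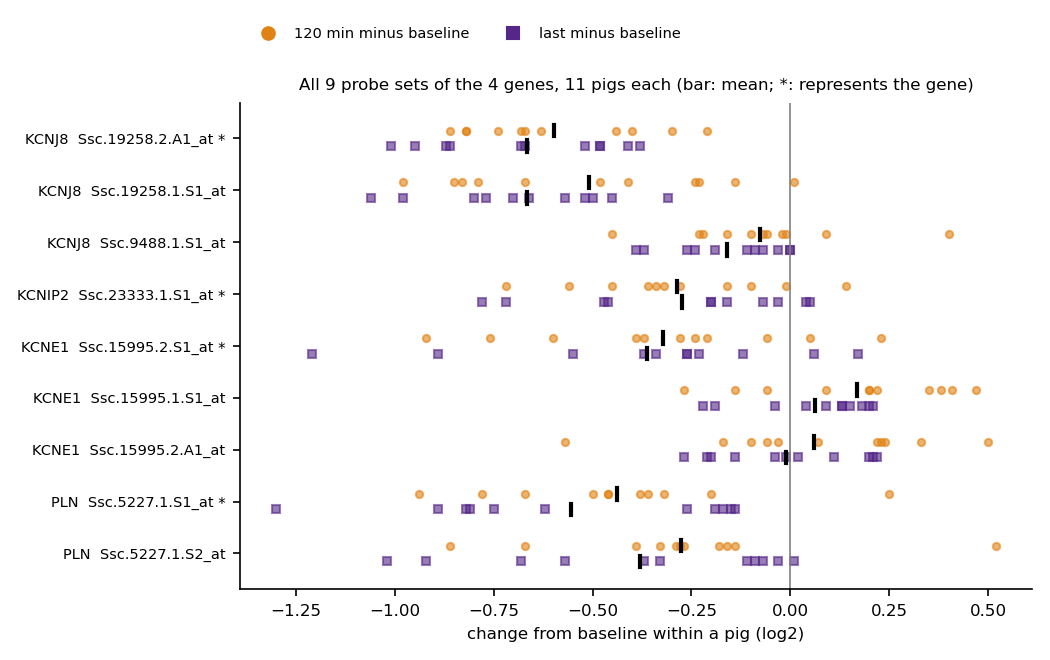
Change from baseline within each of 11 pigs (horizontal axis, log2) for all 9 probe sets (vertical axis), at 120 min (circles) and at the last biopsy (squares), with the mean as a black bar. The KCNJ8 and PLN probe sets lie mostly left of 0, while 2 of the 3 KCNE1 probe sets centre near 0 or above it.

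The potassium channel list held 38 genes, of which 14 were measured. KCNJ8, KCNIP2 and KCNE1 were chosen as the lowest of the 14 at 120 min, so no call is counted for them. Of the other 11, 1 was lower at 120 min past the threshold in limma and none was higher. Over all 6765 genes 20.8% fell and 13.1% rose. The count of lower genes among the 11 is smaller by construction and is given as a description. The 1 was KCNE3, a relative of KCNE1, with -0.24 ± 0.09 (SE, adjusted p = 0.0407 in limma, lower in 8 of 11 pigs). The median change of the 11 was 0.04, against -0.02 over all 6765 genes. KCNQ1, the pore partner of KCNE1, changed by -0.06 ± 0.06, KCNH2, the pore of the rapid delayed rectifier, by 0.05 ± 0.06, and KCNJ2, the main inward rectifier of the ventricle, by 0.04 ± 0.07. The probe sets of these pores gave group means of at most 6.17, near or under the array medians. For KCNJ2 they lay between 3.59 and 3.84, where the lowest value of any array was 2.21. A value that dim cannot show whether KCNJ2 changed. Of the partner panel, ABCC9 (the SUR2 subunit that pairs with KCNJ8), KCNJ11, the Kv4 pores KCND2 and KCND3, and CACNA1C had no single-symbol probe set and were not analysed here.

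Among calcium handling genes, PLN had the largest fall of 25 measured of 41 listed. Of the other 24, 5 fell at 120 min in limma and none rose, a share of falls near the 20.8% of all genes. CAMK2G, a subunit of calcium/calmodulin-dependent kinase, fell by 0.36 ± 0.07, and ORAI1, a store-operated calcium channel, by 0.30 ± 0.05 in 11 of 11 pigs. HRC, a calcium-binding protein of the sarcoplasmic reticulum, fell by 0.21 ± 0.07, the calmodulin gene CALM3 by 0.20 ± 0.08 and sorcin, SRI, by 0.17 ± 0.05 (SE, adjusted p of the 5 at most 0.0476). The median of the 24 was -0.04, against -0.02 over all genes.

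ATP2A2, which encodes the pump that phospholamban restrains, did not pass at 120 min, with -0.05 ± 0.06 (SE, adjusted p = 0.553 in limma). Of its other 3 probe sets, 1 with a mean level of 6.21 rose by 0.38 ± 0.06 (adjusted p = 6.42e-05 in limma). Sarcolipin, SLN, the related inhibitor of the pump in atrial muscle, had 0.48 ± 0.24 (adjusted p = 0.135 in limma) at 120 min. Over the whole course it had 0.83 ± 0.32 in the shunt arm (adjusted p = 0.0491 in limma) and 0.40 ± 0.35 in control pigs (adjusted p = 0.575). The SLN probe set had a mean level of 5.83, under the median of every array, and ran from 4.79 to 7.39 at baseline in shunt pigs. The difference between the arms for SLN was 0.43 ± 0.48 and did not pass (adjusted p = 0.795 in limma). RYR2, the calcium release channel, had -0.11 ± 0.10, the exchanger SLC8A1 -0.13 ± 0.12, and the calcium store protein CASQ2 0.33 ± 0.15 at 120 min, and none of these 3 passed in limma. Over the whole course 16.7% of all genes rose and 23.6% fell with the shunt, and 4.39% rose and 5.59% fell in control pigs.

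**Figure D5:**
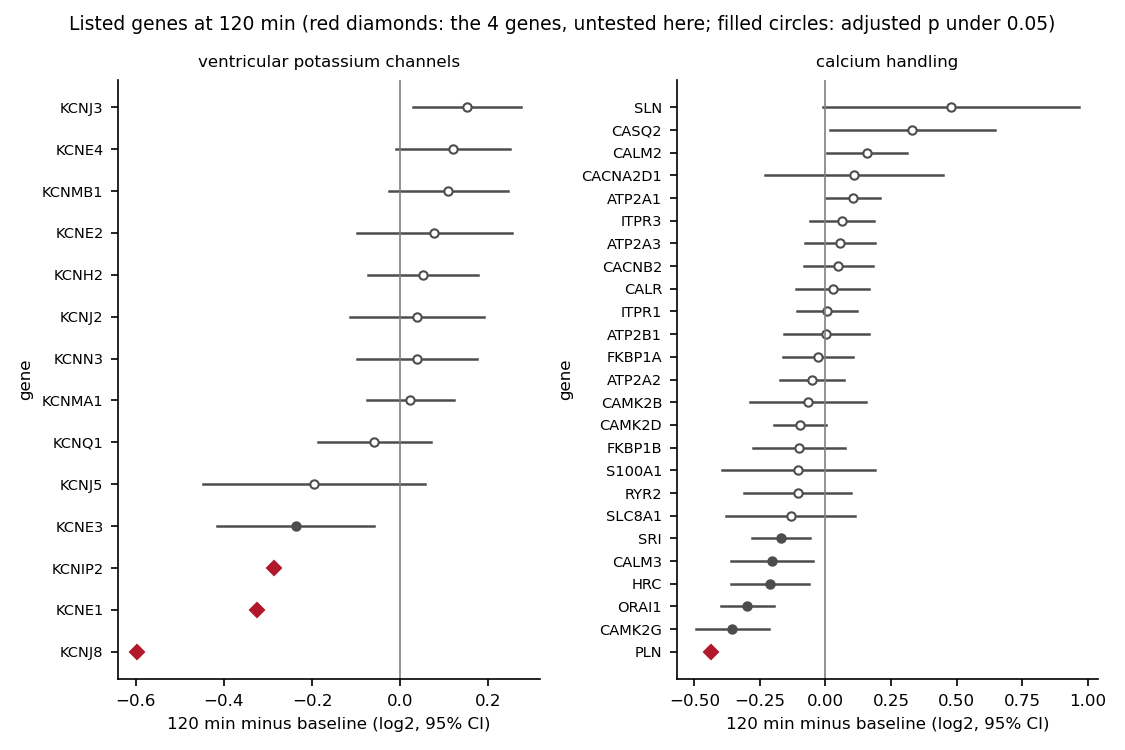
Change from baseline to 120 min over all pigs (horizontal axis, log2) of every measured gene of the potassium channel list (left) and the calcium handling list (right), with 95% confidence intervals; filled circles passed an adjusted p of 0.05. The red diamonds are KCNJ8, KCNE1, KCNIP2 and PLN, whose place at the bottom of the panels is how they were chosen, and among the other potassium channel genes only KCNE3 is filled.

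Of 40 listed genes that set the phosphorylation of phospholamban, 22 were measured, and at 120 min 3 rose and 3 fell in limma. Over all genes 13.1% rose and 20.8% fell, so neither count is a result about this list. PDE4B, a phosphodiesterase that breaks down cAMP, rose by 1.05 ± 0.14, PRKAR1A, a regulatory subunit of protein kinase A, by 0.32 ± 0.06 and PPP1R2, an inhibitor of protein phosphatase 1, by 0.20 ± 0.06. The phosphatase subunit PPP1CC fell by 0.31 ± 0.05, the receptor kinase GRK5 by 0.28 ± 0.09 and the kinase anchor AKAP7 by 0.32 ± 0.12 (SE, adjusted p of the 6 at most 0.0461). PRKACA, the catalytic subunit that phosphorylates phospholamban, had -0.10 ± 0.08 at 120 min and did not pass; over the whole course it fell by 0.38 ± 0.11 in the shunt arm (adjusted p = 0.00723 in limma), and had -0.11 ± 0.12 in control pigs (adjusted p = 0.655). The difference between the arms for PRKACA, -0.27 ± 0.16, did not pass (adjusted p = 0.524 in limma). PPP1R1A, the inhibitor-1 of protein phosphatase 1, had -0.04 ± 0.07 at 120 min.

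Of the cardiac transcription factors, 7 of 18 listed were measured. Over all pigs 6 fell and none rose at 120 min in limma, where 20.8% of all genes fell. By arm at 120 min, 6 of the 7 fell in shunt pigs (median -0.39) and none passed in control pigs (median -0.10). The medians over all genes were -0.02 and -0.03. None of the 7 passed for the difference between the arms in that change. HEY2, a Notch target of the ventricle, fell by 0.90 ± 0.16, HAND1 by 0.29 ± 0.07, MEF2A by 0.29 ± 0.07 and GATA4 by 0.28 ± 0.09 (SE). KLF15, a Krüppel-like factor of heart muscle, fell by 0.49 ± 0.17 over all pigs (adjusted p = 0.0275 in limma), with -0.99 ± 0.23 in shunt pigs and 0.10 ± 0.25 in control pigs. That difference of -1.09 ± 0.33, before the shunt, did not pass (adjusted p = 0.474 in limma), and at baseline KLF15 was 0.50 ± 0.18 higher in shunt pigs (adjusted p = 0.308). KLF15 fell over the whole course by 1.22 ± 0.23 in the shunt arm (adjusted p = 0.000164 in limma) and had 0.22 ± 0.25 in control pigs (adjusted p = 0.682). The difference between the arms over the whole course was -1.44 ± 0.33 and did not pass after adjustment (adjusted p = 0.122). Of 8 measured genes for sodium channels, the sodium pump and gap junctions, 3 rose (GJA4 by 0.67 ± 0.08, ANK3 by 0.58 ± 0.09 and ATP1B3 by 0.48 ± 0.10, each in 11 of 11 pigs) and FXYD6 fell by 0.24 ± 0.07, where 13.1% of all genes rose and 20.8% fell.

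In none of the 5 lists did a gene pass for a difference between the arms in the later change. KCNE3 among potassium channels (-0.38), ORAI1 among calcium handling genes (0.24) and MEF2A among transcription factors (-0.35) had the smallest p of their lists, each with an adjusted p of 1.00 in limma.

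Markers of other cells moved over the same hours. The 7 measured smooth muscle and pericyte markers had a mean change of 0.27 ± 0.29 at 120 min (SD, n = 11 pigs, 10 higher) and, over the whole course, 0.61 ± 0.32 in shunt pigs and 0.20 ± 0.13 in control pigs. Their mean level ran from 9.14 to 9.88 at baseline, 9.60 to 10.34 at 120 min and 9.70 to 10.65 at the last biopsy with the shunt, and from 9.48 to 9.91, 9.60 to 10.28 and 9.84 to 10.17 in control pigs. At 120 min 2 of the 7 rose and none fell, with a median change of 0.15 over the 7, where 13.1% of all genes rose and 20.8% fell. The 9 endothelial markers had a mean change of 0.03 ± 0.11 at 120 min. That change was 0.32 ± 0.30 for 4 resident macrophage markers, -0.12 ± 0.18 for 6 lymphocyte markers and -0.45 ± 0.78 for 3 erythrocyte markers. For 7 fibroblast markers it was -0.06 ± 0.15, and for 4 atrial markers -0.07 ± 1.07 (SD, n = 11 pigs). The 8 neutrophil and monocyte markers had a mean whole-course change of 0.98 ± 0.55 in shunt pigs and 0.30 ± 0.20 in control pigs, and 4 of the 8 rose at 120 min. Their mean level at the last biopsy was 6.48 ± 0.57 with the shunt and 5.81 ± 0.15 without it (SD). The mean of the ventricular cardiomyocyte markers changed by -0.11 ± 0.09 in shunt pigs and 0.00 ± 0.04 in control pigs over the whole course. Of the 10, 2 fell over the whole course in shunt pigs, where 23.6% of all genes fell. None of the 10 passed in control pigs, and none passed at 120 min. The part of these shifts in the values of the 4 genes was not tested.

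For each of the 4 genes, the genes of most like pattern were those with the smallest root mean square difference over the 22 within-pig changes from baseline, among 6764 others. For KCNJ8 these were BAZ1B (0.165), SPATS2L (0.169) and KRCC1 (0.175), and for PLN they were RRAGC (0.141), ZNF32 (0.154) and HMGN4 (0.157). For KCNIP2 they were NDUFB3 (0.157), SS18L2 (0.161) and PMS1 (0.164), and for KCNE1 MRPL36 (0.173), MRM2 (0.199) and JAGN1 (0.200). The median distance over all genes ran from 0.435 for KCNIP2 to 0.683 for KCNJ8. BAZ1B, the nearest to KCNJ8, had whole-course changes of -0.83 in shunt pigs and -0.49 in control pigs, and RRAGC, the nearest to PLN, had -0.68 in shunt pigs and -0.28 in control pigs.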

How the data were processed

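Per the submitters' processing notes the deposited values were made with RMA, which gives log2 probe set summaries; its version, and the arrays it was run on together, are not stated there. The log2 values were used as deposited (24123 probe sets, of which 124 controls were left out), without further scaling or filter. Gene symbols came from the platform annotation, with 10069 probe sets naming a single gene. Changes were fitted on all 33 arrays in R 4.3.3 with limma 3.58.1 (lmFit, eBayes), with pig as a fixed block and, within each arm, coefficients for the 120 min and last biopsies (18 residual degrees of freedom); the arms at baseline were compared on the 11 baseline arrays alone. Tests were two-sided, with Benjamini-Hochberg adjustment over 23999 probe sets and a threshold of 0.05. The pairing comes from the labels, which name the pig of each biopsy. With the group means taken off, pairs of arrays from 1 pig had a median r of 0.395, and 31 of 33 such pairs lay over 0.1.

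The 4 genes, the gene and marker lists and the tests were chosen with earlier results of these data known. Because the change from baseline to 120 min chose the genes, and changes within an arm share arrays with it, those are given for the 4 genes as mean and SD over pigs. Tested were only comparisons whose estimates were uncorrelated with that change by design, though they used some of the same arrays. Named genes were the 4 genes with all probe sets, a panel of 16 partners of which 11 were measured, up to 4 genes per list at 120 min and 3 for the later arm difference, and the 3 nearest in pattern; a few others of a short count are named in full, after their values were seen. Alternatives were no pig block, a random block (statmod 1.5.0), 2 other scalings, a trended robust fit, leaving out the dimmest 30% of probe sets, array weights, the mean of a gene's probe sets, single array sets, and each pig left out in turn. The fit was tested on simulated data. Neither positions nor sequences are given, as no genome build was used, and promoter motifs were not analysed here. Each pig counts as 1 replicate.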

Additional observations from a re-analysis of the deposited data

Results flagged for a closer look

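In 1 of 48 groups of pigs examined, a single pig stood apart by Dixon's criterion, which chance alone meets in about 1 in 20 groups. It was PLN in the control arm from baseline to the last biopsy. Control pig 2 changed by -0.75, against -0.26 to -0.14 in the other 4 control pigs. Its last PLN value, 12.47, was the lowest of the control arm, while its baseline of 13.22 lay within the range of the others. Without control pig 2 the mean change of PLN in the control arm was -0.19, against -0.30 with it.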

How the results depend on the processing

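KCNJ8 and PLN at the last biopsy against the earlier ones stayed past the threshold with each pig left out (KCNJ8 -0.39 to -0.34, PLN -0.39 to -0.29), and with no replicate block. Single array sets, with fewer pigs, ended calls: KCNJ8 gave -0.45 in shunt pigs 5 and 6 and -0.23 in control pigs, and PLN gave -0.48 with shunt pigs 1 to 4 alone, -0.50 with pigs 5 and 6 and -0.16 with control pigs. In control pigs alone KCNIP2 turned to 0.034. KCNE1 passed with array weights (-0.24) and without shunt pig 4 (-0.26, adjusted p = 0.0352 in limma; range -0.26 to -0.15 over pigs left out). The arm difference of KCNE1 over the whole course turned to 0.024 without shunt pig 3 (range -0.25 to 0.024), and at baseline it turned to 0.015 with the mean of its probe sets, 0.11 with shunt pigs 1 to 4, and ranged from -0.10 to 0.087 over pigs left out.

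With the mean of a gene's probe sets, KCNJ8 gave -0.45 at 120 min in the shunt arm, and -0.58 in shunt pigs and -0.39 in control pigs over the whole course, and KCNE1 gave -0.032 at 120 min over all pigs, -0.11 at 120 min in the shunt arm, 0.058 at 120 min in control pigs and -0.044 over the whole course in the control arm. Probe sets past the threshold numbered 6964 at 120 min, against 2369 with shunt pigs 1 to 4 alone, 454 with pigs 5 and 6 and 1790 with control pigs. For the last biopsy against the earlier ones, 4955 passed, against 2917 with no replicate block and 1591, 0 and 320 in the same 3 sets. For the arm difference over the whole course 1 passed, against 0 with no replicate block, 189 with array weights, 0 with shunt pigs 1 to 4, and 0 to 274 with 1 pig left out. At baseline 5 passed, against 1 after median centring, 1 with the trended robust fit, 0 with shunt pigs 1 to 4, 16 with shunt pigs 5 and 6, and 0 to 2 with 1 pig left out. Causes were not tested. No arm difference of the 4 genes passed under any of these settings.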
